A study of Homo sapiens with 8 samples.

Results

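Chromatin accessibility was examined at 10 genes of the TEAD, YAP and Hippo pathway: the transcription factor genes TEAD1, TEAD2, TEAD3 and TEAD4, the coactivator genes YAP1 and WWTR1 (which encodes TAZ), the TEAD cofactor genes VGLL3 and VGLL4, and the upstream genes LATS1 and NF2. The genes were chosen by name, out of 20162 protein-coding genes in the annotation, and a gene window was the gene body with 50 kb on each side. A site was a stretch of genome formed by merging overlapping peaks, kept when at least 2 libraries had a peak there. The 10 windows held 123 of the 75501 sites. The peaks came from ATAC-seq, which maps open chromatin by the places where a transposase can insert adapters, in wild type LX-2 cells. LX-2 is an immortalised line derived from human hepatic stellate cells. Cells grew on a hydrogel of about 2 kPa (soft) or about 40 kPa (stiff) for 2 days (D2) or 4 days (D4). This gave 4 groups of 2 libraries, called D2 soft, D4 soft, D2 stiff and D4 stiff, and each library was made from 100000 cells. One cell line was used. The authors state that sequencing had at least 2 biological replicates, but the labels do not say whether these came from separate cultures. The p-values therefore measure the spread between these libraries.

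The Hippo pathway is a kinase cascade that holds back growth. NF2 (Merlin) helps to recruit and activate the LATS kinases, which phosphorylate YAP and TAZ and so keep them out of the nucleus. When the kinases are inactive, YAP and TAZ enter the nucleus and bind TEAD proteins, which supply the DNA contact. The pathway is known to respond to cell shape, actin tension and the stiffness of the substrate, and in stellate cells YAP is linked to the activated, matrix-producing state.

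TEAD proteins bind the sequence GGAATG, which reads CATTCC on the other strand. The next sequences are the windows of 201 bp, centred on the summit of the best-ranked peak, of the sites named by a set rule (given with the processing steps) that hold this motif, so that possible TEAD contacts within the TEAD, YAP and VGLL genes themselves can be seen. They were read from the GRCh37 (hg19) genome on its plus strand, capitals mark the motif, and a match is a description of the letters and no proof of binding.

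TEAD1 site 1, chr11:12647413-12647613: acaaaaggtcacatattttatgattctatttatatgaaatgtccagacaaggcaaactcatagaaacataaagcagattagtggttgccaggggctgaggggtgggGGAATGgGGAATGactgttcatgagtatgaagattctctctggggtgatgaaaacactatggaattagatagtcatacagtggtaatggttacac
TEAD4 site 3, chr12:3067884-3068084: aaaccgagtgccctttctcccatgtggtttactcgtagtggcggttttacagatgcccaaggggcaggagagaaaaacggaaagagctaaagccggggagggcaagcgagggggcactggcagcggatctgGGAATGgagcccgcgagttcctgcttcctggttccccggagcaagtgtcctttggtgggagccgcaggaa
YAP1 site 8, chr11:102096725-102096925: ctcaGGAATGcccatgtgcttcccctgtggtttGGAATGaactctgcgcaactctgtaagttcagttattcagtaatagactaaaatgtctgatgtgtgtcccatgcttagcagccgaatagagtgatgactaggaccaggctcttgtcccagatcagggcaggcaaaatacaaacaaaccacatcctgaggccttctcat
YAP1 site 10, chr11:102127047-102127247: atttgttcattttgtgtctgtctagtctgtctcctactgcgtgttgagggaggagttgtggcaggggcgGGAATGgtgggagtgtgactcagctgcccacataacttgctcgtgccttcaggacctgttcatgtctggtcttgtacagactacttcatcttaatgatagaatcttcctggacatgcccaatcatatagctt
WWTR1 site 12, chr3:149323764-149323964: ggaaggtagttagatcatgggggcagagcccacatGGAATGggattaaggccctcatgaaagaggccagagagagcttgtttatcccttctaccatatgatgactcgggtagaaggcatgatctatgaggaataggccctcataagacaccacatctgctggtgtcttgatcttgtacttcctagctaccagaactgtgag
VGLL3 site 8, chr3:87040403-87040603: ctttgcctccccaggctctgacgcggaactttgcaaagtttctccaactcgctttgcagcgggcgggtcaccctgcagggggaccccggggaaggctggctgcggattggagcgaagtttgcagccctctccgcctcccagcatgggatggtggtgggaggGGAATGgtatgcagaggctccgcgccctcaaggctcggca
VGLL4 site 7, chr3:11642071-11642271: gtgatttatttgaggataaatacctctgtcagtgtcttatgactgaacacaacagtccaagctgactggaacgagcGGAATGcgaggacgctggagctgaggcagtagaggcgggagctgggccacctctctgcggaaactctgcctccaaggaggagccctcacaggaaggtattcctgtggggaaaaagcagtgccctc

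Sites were numbered within each window from the low to the high coordinate. TEAD1 site 1 and YAP1 site 10 lay outside the gene bodies. WWTR1 site 12 and VGLL4 site 7 were intronic. TEAD4 site 3 and VGLL3 site 8 were promoter sites upstream of the genes, and YAP1 site 8 lay in a YAP1 intron, 879 bp from the start of a short YAP1 transcript. The TEAD1 window held 2 matches side by side, 6 bp and 13 bp from the summit, and the YAP1 site 8 window also held 2.

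The TEAD motif was searched on both strands in these 201 bp windows at all 123 sites and was found at 18 of them (14.6%), against 19.1% of all sites. The AP-1 motif TGANTCA, bound by JUN and FOS proteins, was found at 47 (38.2%, against 38.9%), and the GC box GGGCGG at 21 (17.1%, against 16.2%). Both the TEAD and the AP-1 motif were found at 6 sites (4.88%, against 7.44%). By gene, the TEAD motif was found at 4 of 10 VGLL3 sites, 3 of 24 TEAD1 sites, 3 of 13 TEAD4 sites, 3 of 13 YAP1 sites, 2 of 21 WWTR1 sites, 2 of 16 VGLL4 sites and 1 of 4 TEAD2 sites. These letters were in no window of TEAD3, LATS1 or NF2. The AP-1 motif was found at 13 of 24 TEAD1 sites and 10 of 21 WWTR1 sites. The sites of the windows thus held the AP-1 motif and the GC box at shares near those of all sites. The TEAD motif was at a lower share than over all sites, a difference that was not tested.

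The lists held 29789 to 72840 peaks, and depth, estimated from the peak values, was 0.780 to 3.15 fragments per kb of genome. D2 soft replicate 1 was the shallowest library by both measures. The 10 windows held 45 peaks in D2 soft replicate 1 and 87 in replicate 2, 98 and 82 in D4 soft, 99 and 102 in D2 stiff, and 111 and 113 in D4 stiff. Per 10000 peaks of a list this was 15.1 and 15.6 in D2 soft, 15.5 and 14.5 in D4 soft, 16.7 and 16.02 in D2 stiff, and 16.8 and 15.5 in D4 stiff. The share of the stiff libraries was 16.3 ± 0.619 and that of the soft libraries 15.2 ± 0.476 (SD, n = 4 each), and the arms overlapped. When every list was shortened to its best 29789 peaks, the windows held 43 to 50 peaks in every library.

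Of the 123 sites, 21 were promoters of the pathway genes (a summit within 1 kb of a transcription start of the gene), 17 were promoters of other genes in the windows, and 85 were distal, of which 59 lay within the gene bodies. A peak was found in every library at 38 sites (30.9%, against 32.1% of all sites). This held for 14 of the 21 promoters of pathway genes, for 3 of the 17 other promoters and for 21 of the 85 distal sites. At the other end, 24 distal sites had a peak in only 2 or 3 libraries. A list leaves out weaker signal, so a missing peak is not closed chromatin, and a bulk library cannot tell fewer cells with an open site from less opening per cell. The windows of TEAD1 (24 sites), WWTR1 (21) and VGLL4 (16) held the most sites, and TEAD2 (4), LATS1 (7) and NF2 (7) the fewest. Per 100 kb of window, the density was highest for TEAD4 (7.17 sites) and lowest for TEAD2 (3.28), beside a median of 3.93 over all protein-coding genes.

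**Figure D1:**
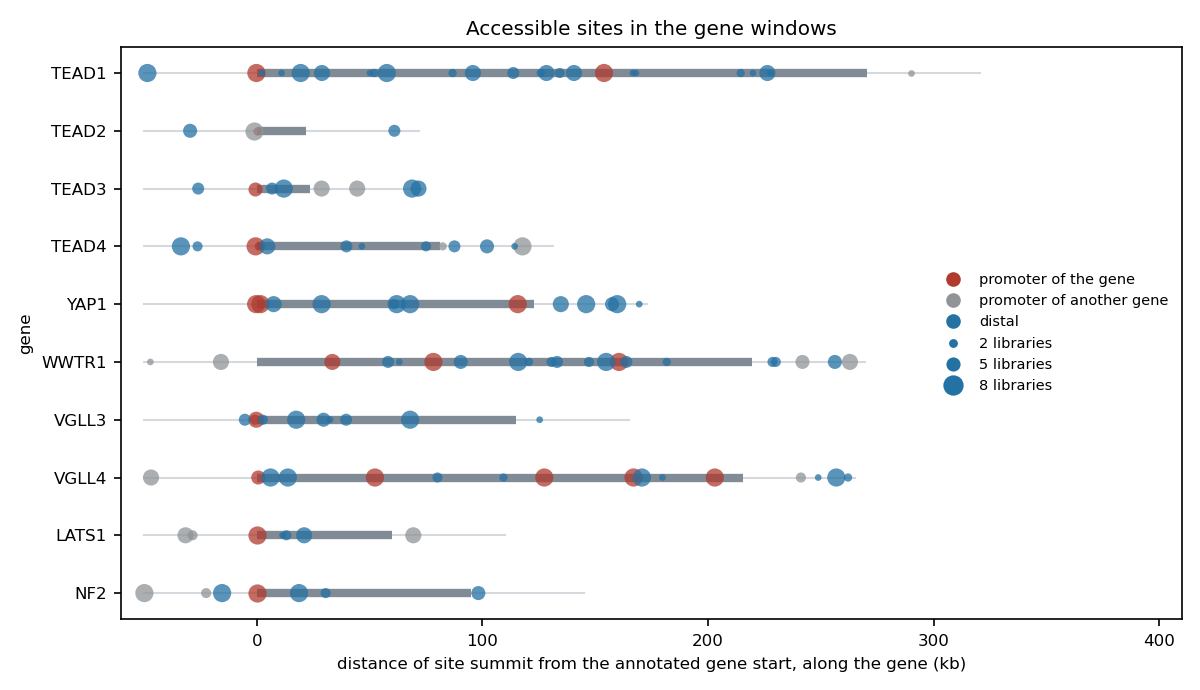
Position of the 123 sites along the 10 gene windows, as distance of the summit from the annotated gene start (kb), with the gene body as a grey bar, the class of site as colour and the number of libraries with a peak as point size. Promoter sites are mostly large points, found in many libraries, and the windows of TEAD1 and WWTR1 also hold small points, found in few libraries.

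Signal was described by the percentile of a peak's fold enrichment (its pileup over local background) within its own list, from 0 for the weakest to 100 for the strongest. The 4 TEAD genes differed widely at their promoters. TEAD4 and TEAD1 had a promoter peak in all 8 libraries, TEAD3 in 6 and TEAD2 in 3.

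TEAD2 had the weakest promoter. Its promoter site (chr19:49865142-49865760, in an annotated exon at the gene start) had a peak in D2 stiff replicate 1, D4 stiff replicate 1 and D4 stiff replicate 2, at percentiles of 1.46, 2.29 and 0.21 and fold enrichments of 3.44, 3.37 and 2.82. All 3 were among the weakest peaks of their lists, and none was in a soft library. This site also lay within 1 kb of a start of DKKL1, the divergent neighbour. A second site at the start of DKKL1 was open in every library (chr19:49866409-49867246), at percentiles of 52.6 and 74.5 in D2 soft, 79.5 and 54.7 in D4 soft, 66.3 and 57.5 in D2 stiff, and 68.4 and 81.9 in D4 stiff. Its summit was 1187 bp from the TEAD2 start, just past the 1 kb limit, so an open site lay beside that start. It was the single peak of the TEAD2 window in both D2 soft libraries.

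TEAD3 had its promoter site upstream of the gene, at chr6:35464958-35465947, with the summit 894 bp from the TEAD3 start in an annotated exon of the neighbouring gene TULP1. Its percentile was 13.6 in D2 soft replicate 2, 17.4 and 25.7 in D2 stiff, 29.1 in D4 soft replicate 1, and 19.7 and 44.1 in D4 stiff. The 2 libraries without a peak, D2 soft replicate 1 and D4 soft replicate 2, were both soft. The strongest distal site found in every library was intergenic (TEAD3 site 2, chr6:35395547-35396672), at percentiles from 45.3 to 93.6.

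TEAD4 had a promoter of middle rank and little spread. Its upstream promoter site (TEAD4 site 3, chr12:3067384-3068555) lay at percentiles of 53.8 and 48.8 in D2 soft, 47.6 and 40.1 in D4 soft, 46.0 and 57.7 in D2 stiff, and 57.0 and 59.9 in D4 stiff, and the arms overlapped. A second promoter site, 257 bp from a start, had peaks in 3 libraries at the bottom of the lists. The strongest distal TEAD4 site found in every library (site 1, chr12:3034424-3035038) was in an intron of the neighbouring gene TULP3, at percentiles of 35.7 and 22.2 in D2 soft, 69.0 and 72.2 in D4 soft, 30.2 and 57.9 in D2 stiff, and 59.8 and 79.1 in D4 stiff. Every D4 library was above every D2 library at this site.

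TEAD1, the gene with the most sites, had a start site peak (site 2, chr11:12695304-12696035) at percentiles from 6.0 to 56.2, and an internal promoter (site 17, chr11:12848992-12850188) at 28.7 and 23.5 in D2 soft, 36.0 and 71.2 in D4 soft, 32.8 and 17.1 in D2 stiff, and 69.5 and 44.8 in D4 stiff. At the internal promoter every D4 library was above every D2 library. The strongest distal site found in every library was TEAD1 site 1 (chr11:12647029-12647776), upstream of the gene, at percentiles of 51.3 to 88.4. This is the site with the adjacent pair of TEAD motifs.

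YAP1 had the best-ranked promoter site of the 10 genes, and it was not at the 5′ end of the gene. YAP1 site 8 (chr11:102096452-102097652), near the internal start, had fold enrichments of 10.5 and 13.0 in D2 soft, 15.1 and 15.1 in D4 soft, 15.2 and 15.6 in D2 stiff, and 13.9 and 14.9 in D4 stiff. The percentiles were 94.3 and 93.3 in D2 soft, 98.4 and 99.5 in D4 soft, 98.1 and 97.8 in D2 stiff, and 96.6 and 96.6 in D4 stiff. Thus the site was near the top of every list, and its summit pileup was 29 to 95 fragments. In D2 soft replicate 1 the summit of this peak lay more than 1 kb from every YAP1 start. In the other libraries it lay within 1 kb of one.

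The sites at the 5′ start of YAP1 ranked far lower. YAP1 site 1 (chr11:101980649-101981382) lay at percentiles of 26.9 to 62.6. YAP1 site 2 (chr11:101981521-101983250), in a YAP1 intron 466 bp from a start, lay at 66.8 and 46.2 in D2 soft, 19.8 and 11.1 in D4 soft, 15.2 and 41.7 in D2 stiff, and 36.98 and 14.6 in D4 stiff. At site 2 both D2 soft libraries were above every other library. YAP1 had 8 of its 13 sites in every library, and the strongest distal one was intergenic, beyond the 3′ end (site 10, chr11:102126812-102127396), at percentiles of 71.5 to 93.4.

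WWTR1 encodes TAZ, the paralogue of YAP. It had a promoter peak in all 8 libraries, from 3 promoter sites. Site 8 (chr3:149293328-149294324), in an exon within the gene 68 bp from an annotated start, was the steadiest, at percentiles of 76.8 and 74.4 in D2 soft, 79.1 and 77.5 in D4 soft, 80.7 and 77.1 in D2 stiff, and 69.0 and 63.4 in D4 stiff. Site 16 (chr3:149374894-149376729), where the starts of WWTR1 and of its antisense gene WWTR1-AS1 lie close together, was also found in every library, at 43.98 to 74.1. Site 19 (chr3:149420653-149421132), at a start farther upstream, lay at 59.96 to 93.7 in the 7 libraries with a peak, and D2 soft replicate 2 had none. Its mean over those 7 libraries was 76.1, narrowly above the 74.8 of site 8 over all 8. The strongest distal WWTR1 site found in every library was intronic (site 9, chr3:149299107-149299951), at percentiles of 14.7 to 60.2.

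VGLL3 and VGLL4 encode small cofactors that bind TEAD proteins, and VGLL4 is known to compete with YAP for them. Their best-ranked promoter sites lay far apart by fold enrichment. The VGLL3 promoter site (site 8, chr3:87039429-87040746) was found in 7 libraries and not in D2 soft replicate 1, at percentiles of 4.53 to 22.4. The VGLL4 gene had 5 promoter sites at its alternative starts, and the best (site 5, chr3:11609475-11610577) lay at 71.3 and 81.7 in D2 soft, 85.7 and 95.1 in D4 soft, 96.1 and 82.6 in D2 stiff, and 87.4 and 79.1 in D4 stiff. The other VGLL4 promoter sites ranked lower, with mean percentiles from 19.8 (site 8) to 56.7 (site 9). Sites 8 (8.39 to 34.1) and 12 (3.71 to 30.5) overlapped the VGLL3 promoter site in rank.

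VGLL4 also had strong distal sites. Site 2 (chr3:11555460-11556386), in an intron of the neighbouring gene ATG7, lay at percentiles of 62.5 and 99.8 in D2 soft, 95.9 and 99.5 in D4 soft, 98.5 and 98.6 in D2 stiff, and 97.5 and 97.0 in D4 stiff. It was near the top of every list but that of D2 soft replicate 1. The strongest distal VGLL3 site found in every library was intronic (site 6, chr3:87022660-87023121), at percentiles of 56.4 to 95.1.

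LATS1 and NF2, which restrain YAP and TAZ, had 1 promoter site each, open in every library. The LATS1 promoter (site 5, chr6:150038513-150039700) lay at percentiles of 34.0 and 61.7 in D2 soft, 82.9 and 59.9 in D4 soft, 62.7 and 68.7 in D2 stiff, and 82.0 and 64.2 in D4 stiff. The NF2 promoter (site 4, chr22:29999192-30000077) lay at 95.6 and 96.3 in D2 soft, 93.0 and 95.2 in D4 soft, 89.3 and 92.0 in D2 stiff, and 97.4 and 91.2 in D4 stiff. The arms overlapped at both promoters. No distal LATS1 site was found in every library, and the NF2 one with the best rank was intronic (site 5, chr22:30017623-30018697).

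**Figure D2:**
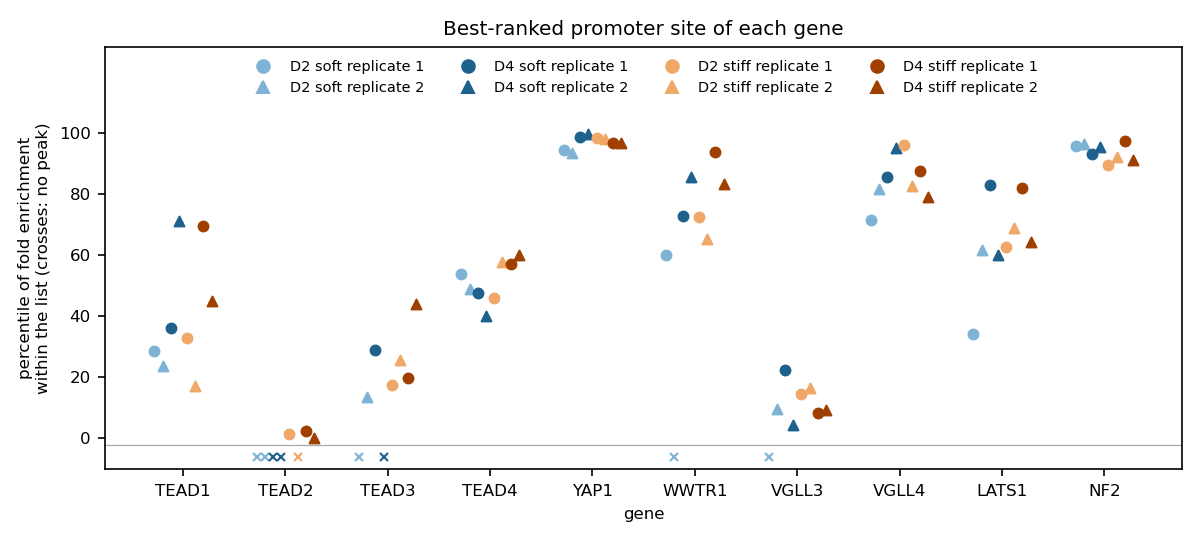
Percentile of fold enrichment within each list at the promoter site of each gene with the best mean percentile over the libraries with a peak, 1 point per library, with a cross where the list has no peak. YAP1 and NF2 lie at 89.3 or above in every library, VGLL3 at 22.4 or below, and TEAD2 has 3 peaks, all in stiff libraries and at 2.29 or below. The YAP1 peak of D2 soft replicate 1 has its own summit more than 1 kb from every YAP1 start.

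The lists also give the −log10 p of each peak, which grows with both fold and the number of fragments. At 19 of the 21 promoter sites of pathway genes the mean percentile was higher by −log10 p than by fold enrichment (90.5%), beside 53.1% of all promoter sites, and the same was found at 21 of the 85 distal sites (24.7%), beside 22.6% of all distal sites. The gap was widest at VGLL4 site 8 (chr3:11645298-11646227), a promoter with a mean percentile of 19.8 by fold and 60.8 by −log10 p. WWTR1 site 8 had a mean percentile of 74.8 by fold and 94.3 by −log10 p, TEAD4 site 3 had 51.4 and 77.5, and TEAD3 site 7 had 24.9 and 46.5. WWTR1 site 19 went the other way, at 76.1 by fold and 65.1 by −log10 p, so by −log10 p it ranked below WWTR1 site 8. The distal VGLL4 site 7 was at 92.1 by fold and 99.6 by −log10 p, the highest rank by −log10 p among the 123 sites.

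**Figure D3:**
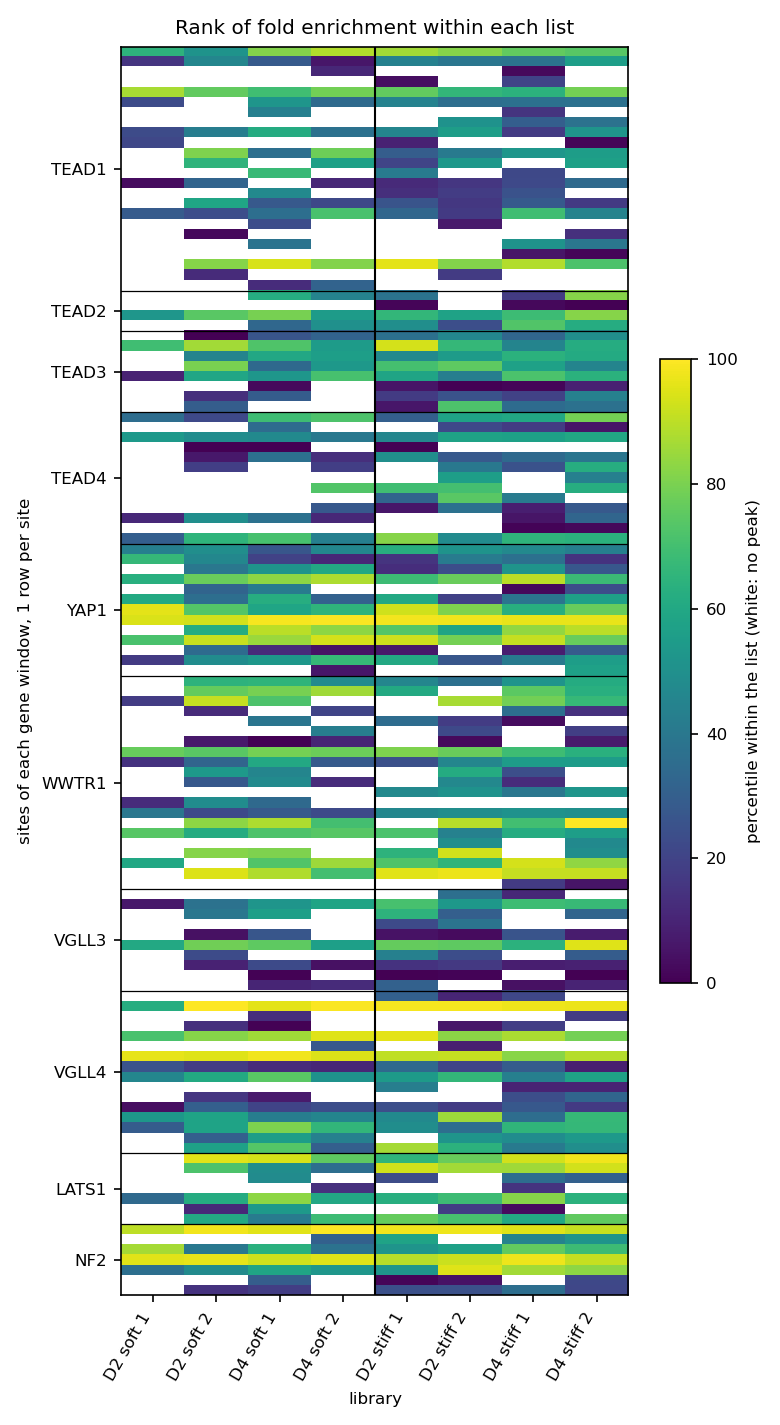
Percentile of fold enrichment within each list (colour, white where the list has no peak) at all 123 sites, in rows by gene and by coordinate, with soft libraries left and stiff libraries right of the line. White cells are most frequent in D2 soft replicate 1, and the bright rows of YAP1, VGLL4 and NF2 run across all 8 libraries.

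The first comparison asked which of the sites had a peak on one matrix alone. A peak in all 4 stiff and no soft libraries was found at 1 of the 123 sites (0.813%), beside 0.85% of all sites. The opposite pattern was found at 0 member sites, beside 0.0172% of all sites. The single stiff site was WWTR1 site 12 (chr3:149323609-149324081), in an intron of WWTR1, 29825 bp from the nearest start, with the TEAD motif printed above. Its fold enrichment was 7.19 and 8.05 in D2 stiff and 6.73 and 8.03 in D4 stiff, at percentiles of 47.1, 51.0, 39.5 and 52.3, and its summit pileup was 11 to 18 fragments. It was therefore a peak of middle rank in each stiff list. A share of 0.813% was near the background, so it does not set these genes apart. The stiff libraries were the deeper ones on each day, and with every list shortened to 29789 peaks the single site with this pattern was TEAD3 site 1, not WWTR1 site 12.

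Within day 2, 12 member sites (9.76%) had a peak in both stiff and neither soft library, beside 7.45% of all sites. They were 3 TEAD4 sites, 2 WWTR1 sites, 2 VGLL3 sites and 1 site each of TEAD1, TEAD2, TEAD3, VGLL4 and NF2. YAP1 and LATS1 had none. Within day 4 there were 8 such sites (6.5%), beside 6.72% of all sites, in TEAD1 (2), WWTR1 (2), TEAD2, TEAD3, TEAD4 and VGLL4. The opposite pattern was found at 2 sites on day 2, in TEAD4 and WWTR1 (1.63%, against 0.391%), and at 1 TEAD1 site on day 4 (0.813%, against 1.31%). D2 soft replicate 1 alone lacked a peak at 16 of the 123 sites (13.0%, against 15% of all sites). Those 16 sites had a peak in D2 soft replicate 2, so they are not among the day 2 sites counted above. The part of the shallow library in the day 2 counts was not tested. With 2 libraries a group, no permutation test of these counts could pass a threshold of 0.05.

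The share of each list in each gene window was compared next, as peaks per 10000. The shares of the stiff and soft libraries did not overlap for 3 of the 10 genes, while this held for 5.06% of 18451 genes with at least 8 peaks in all. TEAD2 had 0.336 and 0.179 in D2 soft, 0.474 and 0.532 in D4 soft, 0.675 and 0.628 in D2 stiff, and 0.607 and 0.549 in D4 stiff. These shares rest on 1 to 4 peaks a library. TEAD4 had 1.34 and 1.43 in D2 soft, 1.11 and 1.42 in D4 soft, 1.69 and 1.73 in D2 stiff, and 1.52 and 1.51 in D4 stiff. YAP1 had 2.69 and 2.15 in D2 soft, 2.05 and 2.13 in D4 soft, 2.02 and 1.73 in D2 stiff, and 1.97 and 1.92 in D4 stiff.

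The share was thus higher in every stiff library for TEAD2 (0.615 ± 0.0521 against 0.380 ± 0.157, SD, n = 4) and TEAD4 (1.61 ± 0.113 against 1.33 ± 0.152, SD, n = 4), as for 2.04% of genes. It was lower in every stiff library for YAP1 (1.91 ± 0.130 against 2.26 ± 0.290, SD, n = 4), as for 3.01% of genes. For each of the 3 the exact two-sided permutation p was 0.0286, the smallest that 70 arrangements can give, and 0.488 after adjustment over the 18451 genes. With that floor a gene could hardly pass after adjustment over so many genes, so this test could not decide. The shares over all genes are therefore the comparison to read. All 3 held with peaks of a q of up to 0.01, and none held in either of 2 other settings. With every list shortened to 29789 peaks the arms did not overlap for TEAD3 alone, and with a flank of 10 kb for VGLL4 alone. YAP1 had 8 peaks in D2 soft replicate 1 and 11 to 14 in the other libraries, and in number of peaks its arms overlapped.

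For the other 7 genes the arms overlapped. The stiff share was 1.43 ± 0.248 against a soft share of 0.980 ± 0.255 for TEAD3 and 1.36 ± 0.368 against 0.935 ± 0.201 for VGLL3 (SD, n = 4). The values for TEAD1 were 2.68 ± 0.222 against 2.55 ± 0.172, and for WWTR1 2.54 ± 0.464 against 2.51 ± 0.209 (SD, n = 4). VGLL4 had 2.14 ± 0.118 against 2.38 ± 0.230, LATS1 0.917 ± 0.200 against 0.812 ± 0.327 and NF2 1.08 ± 0.0912 against 1.06 ± 0.202 (SD, n = 4).

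Within day 2 the share of both stiff libraries was above that of both soft libraries for TEAD2, TEAD3, TEAD4 and VGLL3 (4 of 10 genes, beside 14.5% of all tested genes), and below it for YAP1 and VGLL4 (2 of 10, beside 22%). Within day 4 it was above for TEAD1, TEAD2, TEAD4, WWTR1 and NF2 (5 of 10, beside 17%) and below for YAP1 (1 of 10, beside 24.3%). With 2 libraries a group, no permutation test of these orders could pass a threshold of 0.05.

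**Figure D4:**
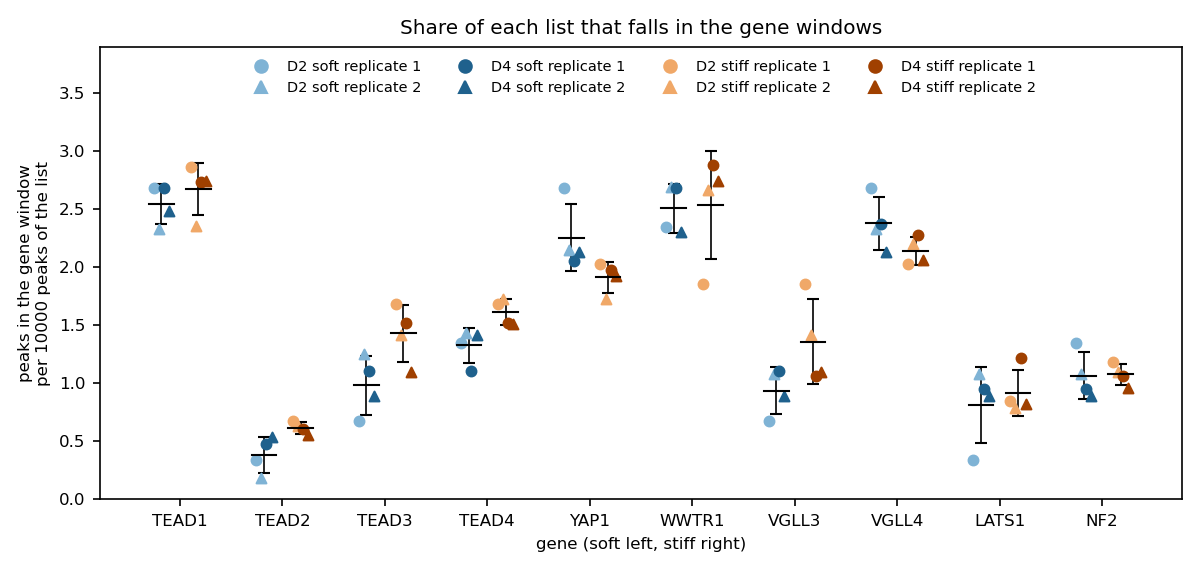
Peaks in each gene window per 10000 peaks of the list, 1 point per library, with the mean (line) and SD (bar) of the 4 soft libraries on the left and the 4 stiff libraries on the right of each gene. The arms do not overlap for TEAD2 and TEAD4, where stiff is higher, and for YAP1, where it is lower.

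Signal strength was compared at the 38 member sites with a peak in every library, as rank scores: the fold enrichment was ranked within a library over the 24246 sites found in all libraries and turned into a normal score, in which 1 stands for the 84.1 percentile. limma called 0 of the 38 sites for stiff against soft over both days (adjusted p under 0.05), beside 0.00825% of all tested sites. At an unadjusted p under 0.05 there were 3 (background 7.72%), 2 higher and 1 lower on the stiff matrix. The median difference of the 38 sites was -0.05, and the 95% intervals, which are not adjusted for the number of sites, had a median reach of 0.72 to each side. Larger differences than that also failed to pass after adjustment.

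NF2 site 5, in an NF2 intron, had the lowest p. Its percentile was 36.7 and 47.9 in D2 soft, 58.2 and 52.5 in D4 soft, 52.5 and 95.2 in D2 stiff, and 86.1 and 83.1 in D4 stiff. Within each day both stiff libraries were above both soft libraries, but D2 stiff replicate 1 was below D4 soft replicate 1. The difference was 1.01 ± 0.379 in rank score (SE, limma adjusted p = 0.552, unadjusted 0.0125). It was 0.520 without D2 stiff replicate 2 and 1.49 without D2 stiff replicate 1.

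VGLL3 site 2 (chr3:86971532-86972582), also intronic, lay at percentiles of 6.52 and 37.7 in D2 soft, 52.2 and 58.4 in D4 soft, 70.9 and 53.4 in D2 stiff, and 69.0 and 67.5 in D4 stiff. The D2 soft libraries were the lowest, and D2 soft replicate 1, with a pileup of 4 fragments, lowest of all. The difference over both days was 0.74 ± 0.345 (SE, limma adjusted p = 0.637, unadjusted 0.0402), and it was 0.491 without D2 soft replicate 1.

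VGLL4 site 7 (chr3:11641935-11642512), an intronic site with a TEAD motif 19 bp from the summit, lay at percentiles of 96.4 and 94.98 in D2 soft, 97.7 and 94.7 in D4 soft, 90.4 and 91.2 in D2 stiff, and 82.2 and 89.0 in D4 stiff. In percentile every soft library was above every stiff library, a pattern of 0.874% of the 24246 sites. The fold enrichments themselves overlapped, at 11.2 to 14.6 in soft and 11.0 to 13.2 in stiff libraries. The difference was -0.80 ± 0.337 (SE, limma adjusted p = 0.602, unadjusted 0.0247). By −log10 p the same peaks were at 99.15 or above in all 8 lists, and there the arms overlapped. The opposite order, stiff above soft in every library, was found at 1 member site, WWTR1 site 14 (chr3:149338316-149339324; stiff 46.1 to 51.1, soft 22.4 to 39.6), beside 3.62% of all tested sites. WWTR1 site 14 is named after its values were seen.

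**Figure D5:**
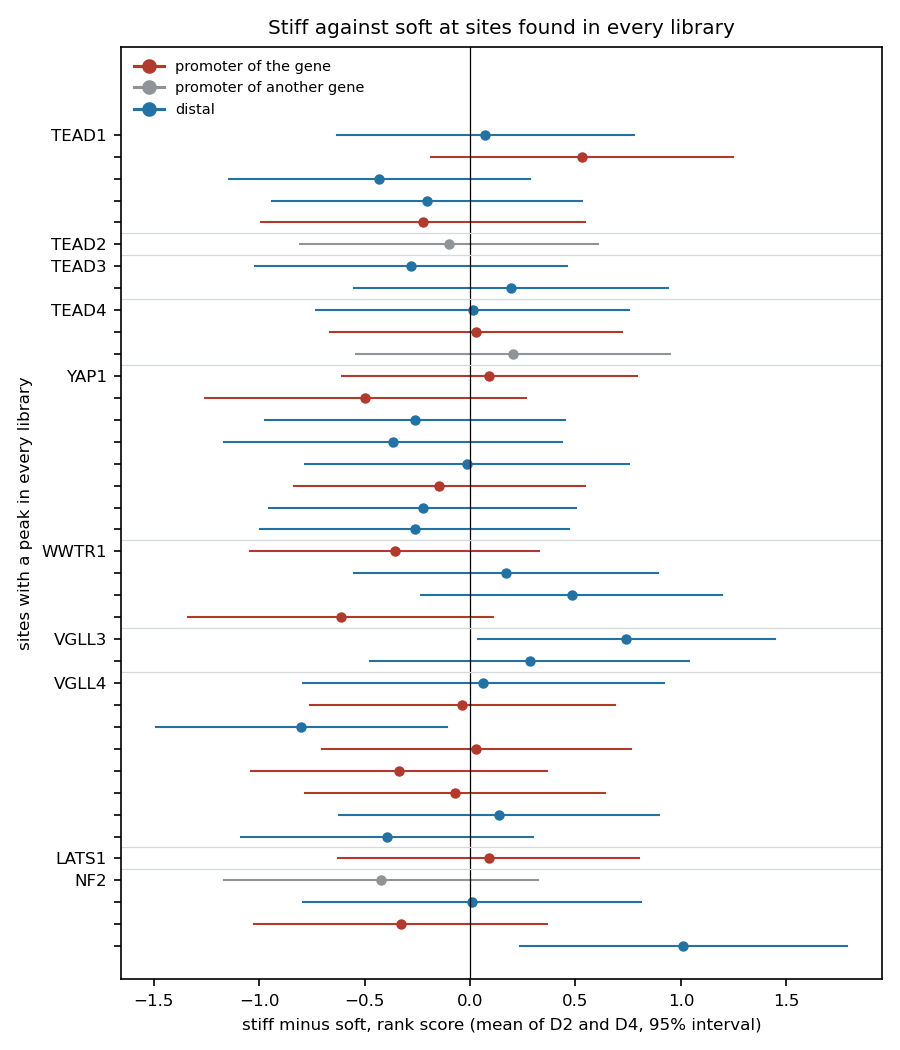
Difference between stiff and soft libraries in rank score (mean of D2 and D4, with the 95% interval of limma) at the 38 sites found in every library, in order of gene and coordinate. The intervals of 3 sites leave out 0, namely VGLL3 site 2 and NF2 site 5 on the stiff side and VGLL4 site 7 on the soft side, and none passed after adjustment.

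Within day 2, limma called 0 of the 38 sites for stiff against soft (background 0.00412%), and 2 had an unadjusted p under 0.05 (background 7.65%): VGLL3 site 2, by 1.16 ± 0.487, and YAP1 site 2, by -1.25 ± 0.526 (SE, limma, adjusted p = 0.578 and 0.579). NF2 site 5 followed, by 0.98 ± 0.537 (SE, limma, adjusted p = 0.693), a difference that was 0.002 without D2 stiff replicate 2 and 1.95 without D2 stiff replicate 1. Without D2 soft replicate 1 the day 2 differences were 0.701 at VGLL3 site 2 and -0.711 at YAP1 site 2, and the latter was -0.758 without D2 stiff replicate 1. Within day 4, limma called 0 (background 0.00825%), and 0 had an unadjusted p under 0.05 (background 5.35%). The lowest p-values of day 4 were those of VGLL4 site 7 (difference -0.97), TEAD1 site 2 at the TEAD1 start (0.997) and NF2 site 1 at the THOC5 promoter (-1.02), with a limma adjusted p of 0.92 for each. Without D4 soft replicate 2 the difference was 0.536 at TEAD1 site 2 and -0.284 at NF2 site 1, and without D4 soft replicate 1 the latter was -1.75. The interaction of stiffness and day gave 0 called sites and 0 at an unadjusted p under 0.05 (background 5.27%). YAP1 site 2 had the lowest interaction p (1.51 ± 0.743, SE, limma adjusted p = 0.92, unadjusted 0.0522), followed by TEAD1 site 1 (-1.31). These were 0.938 at YAP1 site 2 without D2 soft replicate 1 and -0.867 at TEAD1 site 1 without D2 soft replicate 2. None of the 38 sites was therefore shown to respond differently on the 2 days. The 95% intervals of the interaction had a median reach of 1.44 to each side, so sizeable differences could be missed. Member sites without a peak in every library were not in this fit.

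D4 was then compared with D2 on each matrix in turn. For the soft matrix limma called 0 of the 38 sites between D4 and D2, and 0 of all 24246, and 3 member sites had an unadjusted p under 0.05 (background 7.07%). YAP1 site 2, near the 5′ start, was lower on D4 by -1.83 ± 0.526 (SE, limma adjusted p = 0.594, unadjusted 0.00162), with percentiles of 66.8 and 46.2 on D2 and 19.8 and 11.1 on D4. The difference was -2.37 without D2 soft replicate 2, and the site was then called, with the shallow replicate 1 as the only D2 soft library and its spread assumed to equal that of the other groups. In that setting limma called 222 of 24629 sites, so calls were more frequent over all sites too. YAP1 site 7 (chr11:102048755-102049559), another intronic site, was at 96.1 and 73.4 on D2 soft and 58.7 and 64.9 on D4 soft, a difference of -1.29 ± 0.530, and TEAD4 site 1 differed by 1.08 ± 0.513 (SE, limma, adjusted p = 0.652 and 0.692). At YAP1 site 7 the difference was -0.462 without D2 soft replicate 1 and -2.09 without D2 soft replicate 2, and leaving out the latter library gave 0.545 at TEAD4 site 1.

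On the stiff matrix limma called 0 sites between D4 and D2, and 0 of all 24246, and 1 member site had an unadjusted p under 0.05 (background 5.04%). TEAD3 site 2 lay at 93.6 and 66.8 in D2 stiff and 45.3 and 61.7 in D4 stiff, a difference of -1.27 ± 0.512 (SE, limma, adjusted p = 0.925). TEAD1 site 17 (0.97 ± 0.531) and YAP1 site 7 (-0.92 ± 0.530) followed (SE, limma, adjusted p = 0.925 and 0.927). Without D2 stiff replicate 1 the difference was -0.597 at TEAD3 site 2 and -0.555 at YAP1 site 7. Without D2 stiff replicate 2 it was -1.94 at TEAD3 site 2 and 0.639 at TEAD1 site 17, and without D4 stiff replicate 1 the latter was 0.513. Every D4 library was above every D2 library at 3 of the 38 sites, TEAD1 site 17, TEAD4 site 1 and VGLL4 site 14 (chr3:11806391-11807080), the last named after its values were seen, beside 3.5% of all tested sites, and the opposite was found at 0 (0.747%). No member site had a peak in all 4 D4 and no D2 library, beside 0.437% of all sites, and 0 had the opposite pattern, beside 0.00927%. At 4 sites both D4 soft and neither D2 soft library had a peak (3.25%, against 5.79%), 2 of them in the TEAD2 window, and at 8 sites both D4 stiff and neither D2 stiff library (6.5%, against 5.35%). The reverse was found at 0 sites on the soft matrix (against 0.403%) and at 1 on the stiff matrix, in a VGLL3 intron (0.813%, against 1.41%).

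Promoters of the wider pathway were looked up for 22 further genes. A promoter peak was found in all 8 libraries for 7 of the 10 member genes and for 17 of the 22 others (77.3%), beside 46.0% of all protein-coding genes. The exceptions were the kinase genes STK3 and MAP4K4, which lacked a peak in D2 soft replicate 1 only, the cadherin genes FAT1, with a peak in 5 libraries at percentiles of 1.29 to 22.4, and DCHS1, with none, and VGLL1, with none. STK3 lay at percentiles of 87.4 to 99.6 where it had a peak, so the shallow library lacked one of the stronger promoters of the other lists. With these exceptions the kinases, adaptors and scaffolds of the pathway had an open promoter on both matrices and both days.

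The labelled cell type was checked in the same way. Of 11 stellate cell or myofibroblast markers, ACTA2, COL1A1, PDGFRB, VIM and TAGLN had a promoter peak in all 8 libraries, COL1A2 and PDGFRA in 7, HAND2 in 6, COL3A1 and LRAT in 1 and DES in none. Of 5 hepatocyte markers, ALB, APOA1 and HNF4A had none, SERPINA1 had a peak in 1 library and TTR in 2. PTPRC, CD3E, KRT19 and STAB2 had none, CDH5 had a peak in 4 libraries, CDH1 in 5, EPCAM in 6, and CD68 in all 8. PECAM1 was not analysed here. The contractile genes ACTA2 and TAGLN and the collagen gene COL1A1 thus had promoter peaks on both matrices, whereas the collagen gene COL3A1 and the stellate cell markers LRAT and DES did not in most lists. The part of EPCAM, CDH1 and CD68 in the results was not tested.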

How the data were processed

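Reads from ATAC-seq of LX-2 cells had been processed by the authors, who trimmed them (Trim Galore), mapped them to hg19 (Bowtie2 2.4.1) and called peaks in each library with MACS2; bedtools 2.24.0 and Picard are also named in the submitters' processing notes. The authors stated a q-value threshold of 0.05 for the calls, and handling of the transposase offset and the other options of the caller are not given in the sources used here. The deposited fold enrichment of a peak is a ratio of summit pileup to local background, and the authors also deposited its −log10 p and −log10 q values, a score (10 times the −log10 q, not used) and the offset of its summit. The highest q in any list was 0.0498. These values compare peaks within a list, so percentiles within lists were used. No reads or counts were used here. Depth was estimated from the pileup that gives both the deposited fold and p-value, found for at least 99.996% of peaks (within 0.001 of the −log10 p).

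Peaks overlapping by at least 1 bp were merged, and a site needed peaks of at least 2 libraries. Annotation was GENCODE release 44 on GRCh37, and 0 peaks lay beyond chromosome ends. The 10 genes and the gene lists were chosen with earlier results of these data known. Named were the best promoter site of each gene, its best distal site found in every library, sites of a single stiffness or day, and the 3 sites with the lowest limma p in each of 6 contrasts where none was called. Sequence was printed for those of them with a TEAD motif. Window shares were compared by two-sided exact permutation tests, which have 70 arrangements of 4 stiff and 4 soft libraries, adjusted by Benjamini-Hochberg. Rank scores were fitted with limma 3.58.1 (R 4.3.3, 4 group means), adjusted over 24246 sites. On simulated data for D4 stiff against D4 soft (24246 sites, 200 changed) the fit called 40% to 51% of sites changed 4-fold and 0% to 5.5% of those changed 2-fold, with at most 3 unchanged sites. Pileups were drawn as Poisson counts around a common fold per site, with an added spread of 0, 0.1 or 0.3 (SD, log2). No peak threshold was applied, so these shares need not hold for the real libraries. Python 3.11.15, pandas 2.3.3, scipy 1.17.1 and pysam 0.24.0 were used. Alternatives were the −log10 p ranks, a q of 0.01, a flank of 10 kb, lists of equal length, a stricter overlap, a fit per day, a replicate block and leaving out each library.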

Additional observations from a re-analysis of the deposited data

Results flagged for a closer look

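Of 60 groups of 4 libraries examined (gene windows and named sites, soft and stiff apart), 3 held a library far from the other 3 by Dixon's criterion, and chance gives about 1 in 20. The YAP1 window held 2.69 peaks per 10000 in D2 soft replicate 1, against 2.05 to 2.15 in the other soft libraries. The LATS1 window held 1.21 per 10000 in D4 stiff replicate 1, against 0.785 to 0.844 in the other stiff libraries. VGLL4 site 2, the distal site with the best rank in the VGLL4 window, was at the 62.5 percentile in D2 soft replicate 1, against 95.9 to 99.8 in the other soft libraries. In 2 of the 3 the library was D2 soft replicate 1, the shallowest, and the part of depth in these values was not tested.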

How the results depend on the processing

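Most results kept their direction. Of the stiff minus soft differences in window share, 4 of 30 values under other settings and 9 of 80 with a library left out changed sign. They were TEAD1 with lists of equal length (-0.755), WWTR1 with a flank of 10 kb (-0.0333) or a q of 0.01 (-0.0406) and NF2 with a q of 0.01 (-0.0871), and the ranges with a library left out were -0.0848 to 0.258 for WWTR1, -0.0540 to 0.193 for LATS1 and -0.0466 to 0.105 for NF2. The count of genes whose shares did not overlap was 1 with a flank of 10 kb (VGLL4) and 1 with lists of equal length (TEAD3). It was 3 with a q of 0.01. With a library left out it was 3 to 4, TEAD2, TEAD4 and YAP1 among them each time. Their return there was certain beforehand and is no test, since arms that do not overlap cannot overlap with fewer libraries. Sites of all stiff and no soft libraries numbered 1 to 3 with a library left out. There were 2 without D2 soft replicate 2, D2 stiff replicate 1, D4 soft replicate 1 or D4 soft replicate 2, and 3 without D2 stiff replicate 2 or D4 stiff replicate 2. WWTR1 site 12 was always among them, which is no test, since a site with this pattern keeps it when a library is left out. Where peaks had to cover most of a site, the single site of this pattern was LATS1 site 2. Soft sites numbered 0 to 1, the 1 being WWTR1 site 13 without D4 soft replicate 2. limma called 0 member sites in each contrast and setting, except 1 (YAP1 site 2, difference -2.37) for D4 soft against D2 soft without D2 soft replicate 2, so that the range there was 0 to 1; in that setting limma called 222 of all 24629 sites, against 0 of 24246 with all libraries. The cause of these changes was not tested, beyond the fewer peaks or libraries that each setting keeps. Effects were followed only at the 3 sites with the lowest p in each contrast. They did not change sign in 52 values under other settings and 144 with a library left out. These sites were picked by their p in the same data, and some of the libraries left out were not in the contrast. A kept sign is therefore no independent support. The replicate block called 0 member sites in each contrast, and same-numbered libraries were not paired, since their deviations correlated at -0.041 to 0.084 over the 6 pairs of groups and the numbers in the peak names differ from those in the labels. The limits are the 2 libraries a group, the shallow D2 soft replicate 1 and the lists' threshold, below which signal is unseen.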
